A study of Mus musculus with 20 samples.

Results

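The 10 genes described here are Spp1, which encodes osteopontin, with Fn1, Sparc, Igf1, Cd63, Cd9, Gpnmb, Cd52, Cd72 and Cst7, out of 25392 genes with a transcript in any library. They were picked because earlier results of the same libraries placed them among the genes that microglia held more of after a laser lesion of the retina, so their differences between lesioned and unlesioned microglia are given below as a description without a test. Adjusted p-values of these 10 genes are given only where the choice did not use the values, in macrophages, in dendritic cells and in a class in which the annotation joins monocytes with lymphocytes and granulocytes (the joint class). Other genes of their pathways were tested in microglia too.

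Single CD45+ cells, that is, cells of the haematopoietic lineage, were sorted from eyes of C57BL/6 mice aged 8 weeks, and their transcripts were counted with molecular identifiers by mCEL-Seq2. There were 5 groups of 4 libraries with 192 wells each: control retina without a lesion, retina at 3 and at 7 days after a laser lesion, and the unlesioned cornea and ciliary body, and all 5 groups shared strain and age. The laser samples carry the label CNV, and the design text speaks of about 6 mice in 3 experiments without tying a library to a mouse. Libraries of a group that share a title prefix were summed as a pair, which gave pairs P1 and P2 for each retina group, P2 and P5 for cornea and P3 and P4 for ciliary body, but no label states whether the pairs came from different mice. The p-values therefore measure the spread between these sums, which may be technical. The authors' annotation named 829 wells. Of these, 128 were microglia of control retina, with 81 more at day 3 and 113 more at day 7. Dendritic cells filled 26 at day 7 and 82 at day 3, the joint class filled 41 at day 7, 46 at day 3 and 73 in ciliary body, and macrophages filled 121 in cornea and 111 in ciliary body.

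Microglia are the resident macrophages of the retina and the brain. When nervous tissue is injured or degenerates, part of them lower homeostatic genes and raise a set that includes secreted matrix ligands, lysosomal membrane proteins and protease inhibitors, a state often called disease-associated microglia. Osteopontin and fibronectin are secreted proteins that bind integrins, and osteopontin also binds CD44. CD63 and CD9 are tetraspanins, GPNMB and CD52 are membrane glycoproteins, CD72 is an inhibitory receptor, and cystatin F, the product of Cst7, inhibits cathepsin C inside the endolysosomal system.

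Promoter windows from RefSeq on build GRCm38.p6, from 250 bases before to 50 bases after a transcript start, were found for 8 of the 10 genes, among them 2 windows for Spp1. The genes differed in how their levels moved within the same microglia, and the windows of 5 of them are printed for that reason: Spp1 (its first window), Cd63 and Cd72, whose microglial pairs did not overlap between control and either laser time, and Sparc and Cd9, which nearly every microglia well already held without a lesion. The pairs of Sparc did not overlap with control at either time as well. Among all genes tested in microglia, the pairs of 54.4% lay above control at day 3 and those of 34.4% at day 7. Capitals mark matches, on either strand, to the letters of 6 motifs. For the stress-responsive factor AP-1 the letters searched were TGANTCA. For PU.1, a factor that myeloid cells need to form, they were GAGGAA. For the RUNX factors of blood cell development the search took TGTGGT. The E-box bound by the lysosomal MiT/TFE factors was written as TCACGTG. The TATA element near many transcript starts was written as TATAAA. The GC box, common in promoters of widely expressed genes, was written as GGGCGG.
Spp1, chr5:104434861-104435160, plus strand: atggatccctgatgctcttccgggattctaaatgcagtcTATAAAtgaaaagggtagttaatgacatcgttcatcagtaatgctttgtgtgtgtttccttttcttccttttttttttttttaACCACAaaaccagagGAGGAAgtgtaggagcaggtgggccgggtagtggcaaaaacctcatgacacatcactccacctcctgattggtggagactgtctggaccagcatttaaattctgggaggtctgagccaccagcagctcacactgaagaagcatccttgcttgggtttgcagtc
Cd63, chr10:128909095-128909394, plus strand: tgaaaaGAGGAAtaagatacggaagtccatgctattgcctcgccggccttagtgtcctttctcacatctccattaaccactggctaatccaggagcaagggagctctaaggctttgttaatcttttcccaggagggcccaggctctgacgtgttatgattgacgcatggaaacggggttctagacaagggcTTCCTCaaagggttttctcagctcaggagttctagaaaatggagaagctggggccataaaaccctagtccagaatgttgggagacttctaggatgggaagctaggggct
Cd72, chr4:43454577-43454876, minus strand: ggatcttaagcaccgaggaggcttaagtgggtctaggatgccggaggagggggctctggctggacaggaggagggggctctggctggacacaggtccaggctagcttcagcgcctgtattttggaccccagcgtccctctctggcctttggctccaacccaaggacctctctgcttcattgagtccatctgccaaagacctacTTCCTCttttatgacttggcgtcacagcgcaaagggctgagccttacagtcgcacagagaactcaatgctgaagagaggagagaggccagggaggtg
Sparc, chr11:55420031-55420330, minus strand: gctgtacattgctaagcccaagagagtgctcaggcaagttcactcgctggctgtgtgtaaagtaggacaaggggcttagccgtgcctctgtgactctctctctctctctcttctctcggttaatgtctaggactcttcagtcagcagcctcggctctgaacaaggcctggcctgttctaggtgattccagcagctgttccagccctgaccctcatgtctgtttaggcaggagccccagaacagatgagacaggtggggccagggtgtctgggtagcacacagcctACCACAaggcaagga
Cd9, chr6:125494711-125495010, minus strand: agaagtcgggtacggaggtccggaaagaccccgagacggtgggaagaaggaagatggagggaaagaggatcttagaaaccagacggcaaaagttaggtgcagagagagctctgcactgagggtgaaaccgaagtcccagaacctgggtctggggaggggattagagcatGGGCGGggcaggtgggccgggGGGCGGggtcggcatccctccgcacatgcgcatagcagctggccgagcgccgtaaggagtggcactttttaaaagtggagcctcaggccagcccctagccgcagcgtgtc
The Spp1 window held TATA, RUNX and PU.1 letters, which begin 211, 128 and 113 bases before the start. The Cd63 window held PU.1 letters at 2 places and the Cd72 window at 1 place, the Sparc window held RUNX letters, and the Cd9 window held the GC box at 2 places. Of the 9 member windows 4 held PU.1 letters, 4 RUNX, 3 AP-1, 1 TATA, 1 the GC box and 0 the E-box. Among all 32851 windows of the same length the shares were 28.3% for PU.1, 16.8% for RUNX, 7.81% for AP-1, 13.6% for TATA, 35.7% for the GC box and 3.77% for the E-box. These are matches of letters only.

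Levels are transcripts of a gene per 1000000 transcripts (CPM), summed over the wells of a class in a pair. Library totals ran from 371329 to 3325825 transcripts, and annotated wells held 1162 to 42819, with a median of 5019. The label microglia held up against its markers: all 9 markers counted, P2ry12, Tmem119 and Sall1 among them, were detected in each of the 6 microglia sums, which held 6750 and 8097 CPM of them in control, 5745 and 6339 CPM at day 3 and 5763 and 4960 CPM at day 7. By edgeR 7 of these 9 markers were lower and 1 was higher at day 3 than in control (median log2 -1.22), and 4 were lower at day 7 (-0.81). These falls stood beside the members' higher levels, and their part in them was not tested. The predicted gene Gm10800 alone took 32.9 and 28.7% of the transcripts of control microglia, 13.4 and 13.9% at day 3 and 23.3 and 25.9% at day 7. A CPM therefore counts the members against a total that itself differed. Scaling by totals alone put the median gene 0.65 higher at day 3 and 0.26 higher at day 7 than in control on the log2 scale. TMM scaling, which centres the median near 0 (0.03 at day 3), is given beside the CPM for Cd9 and Sparc, whose direction in microglia depends on it.

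Spp1 was absent from the control sums. No transcript of it was found in 128 control microglia, whereas day 3 microglia held 122 and day 7 microglia 19. The pairs P1 and P2 stood at 0 in control, at 339 and 214 CPM at day 3 and at 39.9 and 37.3 CPM at day 7. The 3 times did not overlap. In CPM day 7 lay far nearer to control than to day 3, whereas on the log2 scale it lay nearer to day 3. Against a floor of 3 transcripts for the control group, Spp1 was at least 43.1-fold higher at day 3 and at least 6.55-fold higher at day 7, bounds that cover counting error only. Between laser times it was lower at day 7 than at day 3 by 2.44 ± 0.38 on the log2 scale (SE, edgeR fit, n = 2 pairs each). The 4 libraries of day 3 spread widely, with a lowest value of 57.1, a median of 255 and a highest of 567 CPM, whereas those of day 7 lay between 31.0 and 46.7 CPM.

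Fn1, the gene of fibronectin, a matrix glycoprotein of wound beds, had the same order in time. It stood at 0 and 2.89 CPM in control, 569 and 440 CPM at day 3 and 61.6 and 69.9 CPM at day 7, so again no 2 times overlapped. The counts behind these values were 1 transcript in control, 231 at day 3 and 32 at day 7. The ratio to control was 245 (95% counting interval 43.5 to 9708) at day 3 and 33.1 (5.53 to 1348) at day 7, and day 7 was lower than day 3 by 2.58 ± 0.31 on the log2 scale (SE). One of the 4 day 7 libraries had no Fn1 in its microglia and the highest had 175 CPM.

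Sparc and Igf1 are the other secreted members. Sparc, a matricellular protein that microglia express without injury, stood at 3182 and 3742 CPM at day 3, against 1777 and 1649 CPM in control. Its day 7 values were 3175 and 2580 CPM, above control too. The size of this gap depended on the scaling: under TMM Sparc differed from control by 0.39 ± 0.22 at day 3 and 0.47 at day 7 on the log2 scale, against 1.05 and 0.77 with totals alone. Day 7 lay below day 3 in CPM, but under TMM its log2 difference from day 3 was 0.07 ± 0.22. Igf1, a growth factor, rested on 1 transcript in control, 7 at day 3 and 8 at day 7 (0 and 2.89, 6.39 and 18.6, 14.5 and 18.6 CPM), too few to pass the filter on low counts.

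**Figure D1:**
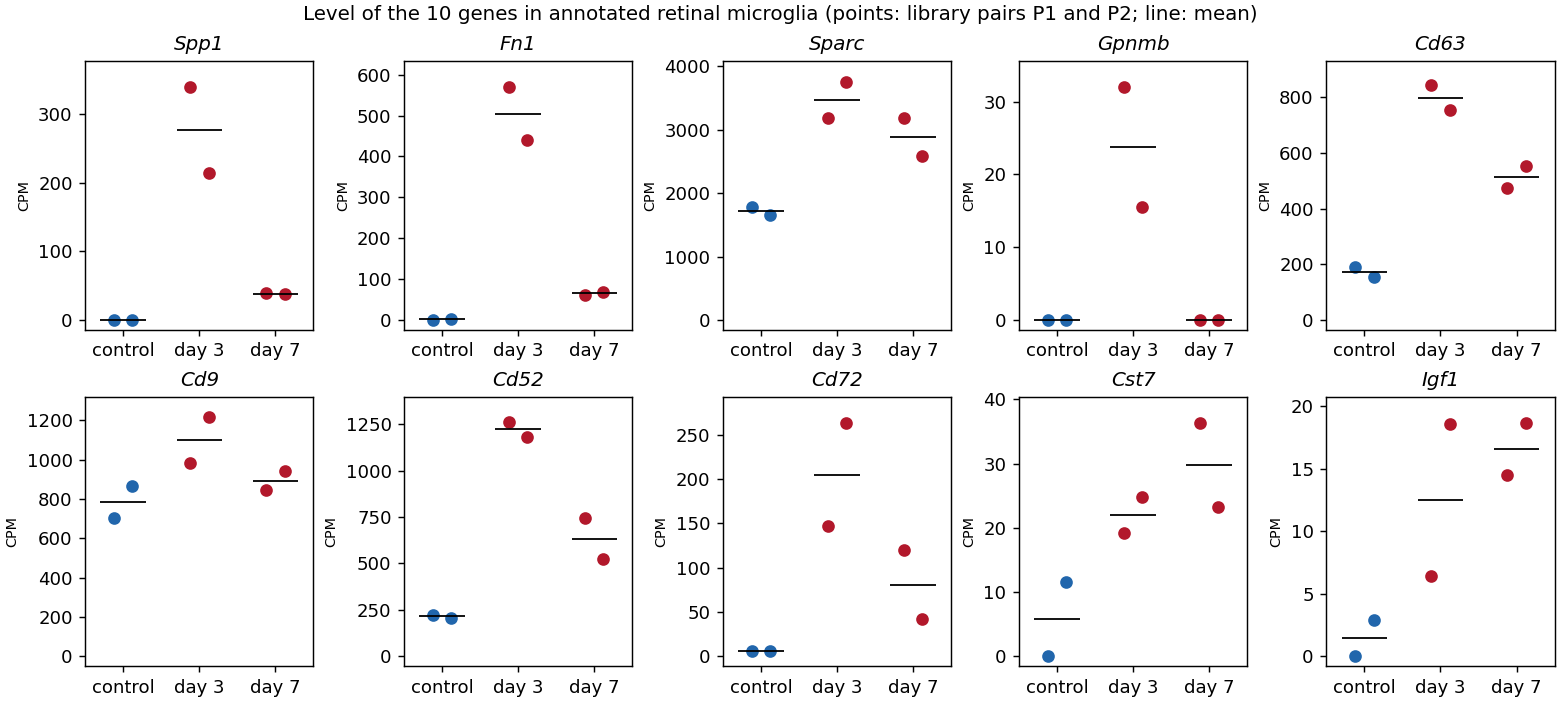
CPM of each of the 10 genes in microglia of control retina and of retina 3 and 7 days after laser, 1 panel per gene on a linear axis of its own from 0. Points are the 2 library pairs, and a short horizontal line marks their mean at each time. Spp1 and Fn1 stand at 0 to 2.89 CPM in control and peak at day 3, while Cd9 and Sparc are already at 703 CPM or more in control, and the excess of Cd9 at day 3 turns into a log2 difference of -0.12 under TMM scaling.

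Among the membrane proteins, Cd63, a tetraspanin of late endosomes and lysosomes, stood at 191 and 153 CPM in control, 844 and 756 CPM at day 3 and 475 and 554 CPM at day 7. The 3 times did not overlap, and its log2 difference from control was 1.62 ± 0.24 at day 3 and 1.33 at day 7 (TMM). On the log2 scale Cd63 was thus nearly as far above control at day 7 as at day 3. Its log2 difference between the laser times was -0.28, against -2.44 for Spp1 and -2.58 for Fn1. Cd9, a tetraspanin of the cell surface, behaved differently from Cd63. It stood at 703 and 865 CPM in control, 984 and 1218 CPM at day 3 and 844 and 941 CPM at day 7, and its day 3 difference of 0.52 with totals alone was -0.12 ± 0.21 under TMM scaling. Under TMM its day 7 difference from control was -0.09 ± 0.22. Counted per 1000000 transcripts of genes other than predicted and mitochondrial ones, Cd9 was at 1485 and 1871 at day 3, which overlapped the 1748 and 1937 of control. The name lesion-induced is therefore not borne out for Cd9, and for Sparc it depends on the scaling.

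Cd52, a small surface glycoprotein anchored by a lipid and abundant on lymphocytes and myeloid cells, stood at 222 and 208 CPM in control, 1265 and 1183 CPM at day 3 and 743 and 526 CPM at day 7. No 2 times overlapped, and the log2 difference from control was 1.90 ± 0.23 at day 3 and 1.30 at day 7. Cd72, an inhibitory lectin-like receptor known from B cells, stood at 6.17 and 5.79 CPM in control, 147 and 263 CPM at day 3 and 120 and 41.9 CPM at day 7. Only 3 control transcripts lie behind it, and the ratios of 38.1 (12.7 to 188) at day 3 and 14.5 (4.63 to 73.1) at day 7 carry counting intervals accordingly wide. Gpnmb, a transmembrane glycoprotein that the MiT/TFE factors raise under lysosomal stress, was seen only at day 3, with 10 transcripts in 3 wells (32.0 and 15.5 CPM, at least 3.53-fold higher than control). It was at 0 in 113 day 7 wells, which allows a share of up to 2.65% (3 wells of the total), and in 128 control wells, which allows up to 2.34%. Cst7, the inhibitor, had 4 transcripts in control, 11 at day 3 and 15 at day 7 (0 and 11.6, 19.2 and 24.8, 36.2 and 23.3 CPM).

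In all, 7 of the 10 members passed the filter on low counts in microglia, and Gpnmb, Igf1 and Cst7 did not. Spp1, Fn1 and Cd72, with 0, 1 and 3 control transcripts, passed it only through the laser groups, where they were high. By edgeR with an adjusted p under 0.05, 5 of the 7 were called higher at day 3, where 11.4% of 3699 genes were, and 5 of 7 at day 7, where 0.622% were. Without the wells that held a monocyte or dendritic cell marker, which left 63 day 7 wells and 91 control wells, none of the day 7 calls was left: Spp1 did not pass the filter, and no gene of 2022 was called. Between day 7 and day 3, 2 were called lower (Spp1 and Fn1), where 4.68% of genes were. The pairs of all 7 lay above both control pairs at day 3, as did those of 54.4% of all genes tested. At day 7 the pairs of 6 did, with Cd9 the exception, beside 34.4% of all genes, and the day 7 pairs of all 7 lay below both day 3 pairs, beside 44.2% of all genes. For Cd9 and Sparc that last order held in CPM only, as TMM put day 7 higher than day 3 by 0.04 and 0.07 on the log2 scale. The members were chosen on these contrasts, so the calls are no test of them and nothing is read from the counts.

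The share of wells holding a transcript separates genes that few cells carried from genes that most carried. Spp1 was found in 0 of 128 wells in control, which allows up to 2.34% by the limit of 3 wells and 2.91% by the 95% Wilson interval, in 21 of 81 at day 3, or 25.9% (95% Wilson interval 17.6 to 36.4), and in 10 of 113 at day 7, or 8.85% (4.88 to 15.5). Fn1 was found in 1 well in control, in 27 at day 3, or 33.3% (24 to 44.1), and in 12 at day 7, or 10.6% (6.18 to 17.6). So even at day 3 most microglia wells had no transcript of either ligand gene. Cd72 was found in 2.34% of wells in control, 46.9% at day 3 and 23.0% at day 7. Cd63 was found in 43.0, 77.8 and 73.5% in the same order, and Cd52 in 50, 96.3 and 77.9%. Cd9 and Sparc were in 92.2 and 98.4% of control wells, which leaves little room above.

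Wells differed in depth, with a median of 3567 transcripts in control, 4480 at day 3 and 4136 at day 7, so each well was also thinned to 1000 transcripts, for which no microglia well had to be left out. The expected share for Spp1 was then 0 in control, 12% at day 3 and 2.83% at day 7, and for Fn1 0.246, 19.6 and 4.27% in the same order. For Cd63 it was 15.8, 41.4 and 37.8%, for Cd52 19.2, 67.4 and 43.1%, and for Cd72 1.01, 17.7 and 7.31%. Dendritic cells of the day 3 libraries, which had a median of 10286 transcripts, gave 2.09% for Spp1 and 2.92% for Fn1 at the same thinned depth, a level that includes any free RNA. The microglial shares of both genes at day 3 lay above it. At day 7 the dendritic cells had neither gene in 26 wells, and the microglial shares there were not far above the dendritic ones of day 3. Day 3 dendritic cells gave 10.4% for Cd63, 13.8% for Cd9, 12.4% for Sparc and 14.7% for Cd72, the last close to the 17.7% of microglia. For Cd52 the dendritic share was 84.0%, above the 67.4% of microglia. The day 3 joint class gave 7.25% for Spp1, 10.9% for Fn1 and 65.6% for Cd52. With both pairs thinned, the day 3 shares of microglia lay above both control pairs for 9 of the 10 members, Cst7 being the one that overlapped, beside 49.3% of all genes tested. The order for Cd9 again depended on the denominator: counted over other than predicted and mitochondrial transcripts its thinned share was 81.7% in control, 76.5% at day 3 and 76.6% at day 7, and that of Sparc was 94.7, 93.5 and 91.9%.

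**Figure D2:**
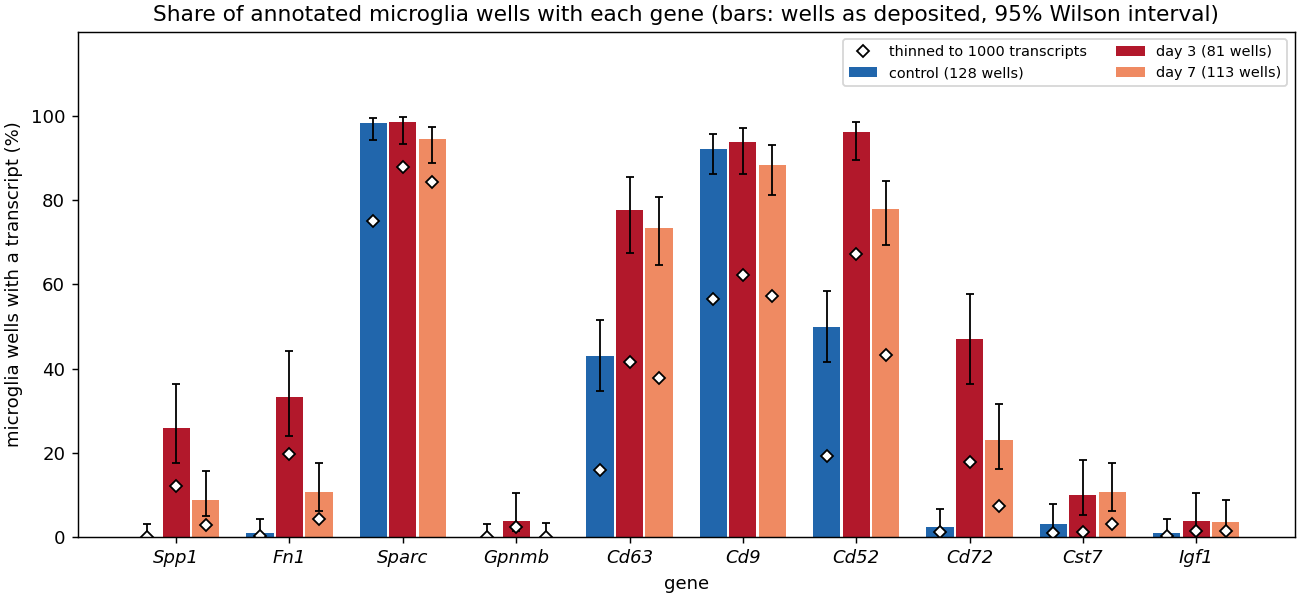
Percentage of microglia wells with at least 1 transcript of each gene, by time: control, day 3 and day 7. Bars are the shares as deposited with 95% Wilson intervals for counting error, and diamonds are the shares expected after thinning every well to 1000 transcripts. Spp1 and Fn1 reach 25.9 and 33.3% of wells at day 3, while Cd9 and Sparc are above 88% at every time.

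Within the positive wells Spp1 was unevenly spread. The 3 wells with most transcripts held 56.6% of all Spp1 of day 3 microglia, against 38.1% for Fn1. They held 38 transcripts (pair P1), 16 (pair P2) and 15 (pair P2), and without them the level at day 3 was 117 CPM in place of 255. Leaving out the first alone took pair P1 to 99.0 CPM. The well of 38 transcripts, of 5024 in total, was the only microglia well that held all 10 members: besides Spp1 it had 27 transcripts of Cd63, 25 of Sparc, 13 of Cd9, 12 of Fn1, 5 of Gpnmb, 4 of Cd52 and 1 each of Cst7, Cd72 and Igf1. Of the 10 Gpnmb transcripts of day 3 microglia it held 5. A median of 3 members was found per well in control, 5 at day 3 and 4 at day 7, and 5 or more were found in 0.781% of control wells, 53.1% of day 3 wells and 31.9% of day 7 wells.

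**Figure D3:**
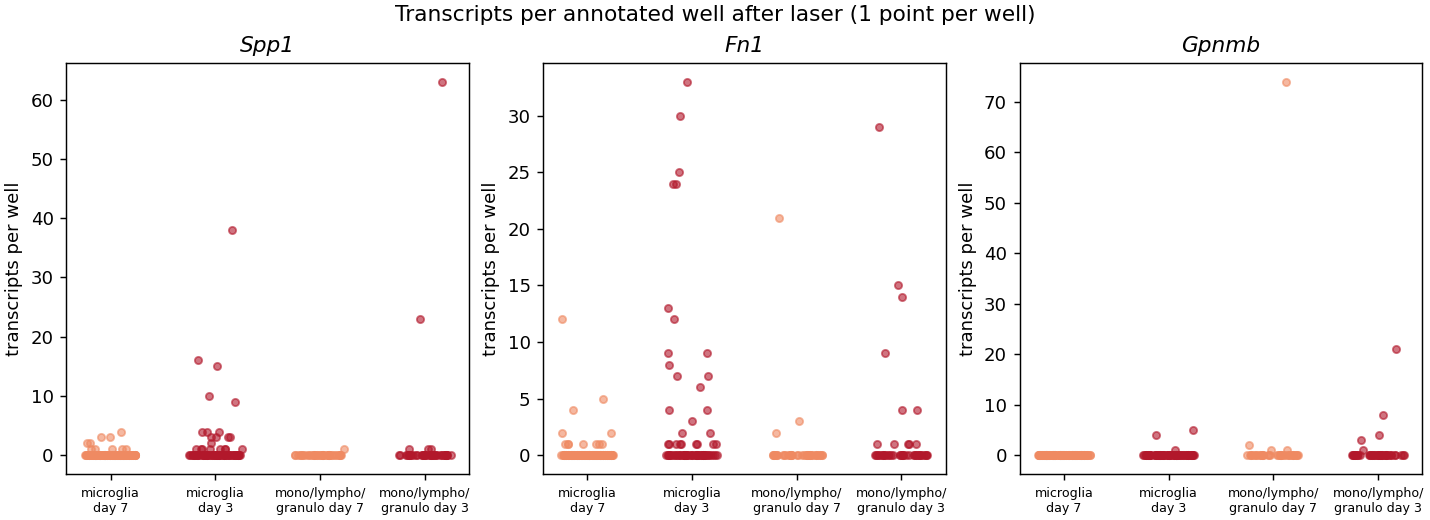
Transcripts of Spp1, Fn1 and Gpnmb in single wells of microglia and of the joint class of monocytes, lymphocytes and granulocytes, at day 7 and day 3, with 1 point per well. Most wells lie at 0, and 3 microglia wells and 2 wells of the joint class at day 3 hold most Spp1, the highest with 38 and 63 transcripts.

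Co-detection was taken at 1000 transcripts, since the 21 day 3 wells with Spp1 were deeper (median 6237 transcripts) than the 60 without (3606.5). Both genes were thinned, so each well counted as with Spp1 by its chance of keeping a transcript of it. Wells with many Spp1 transcripts therefore weighed most, and wells with few counted largely as without. Cd63 showed the widest gap, with an expected share of 73.2% in wells with Spp1, against 37.1% in wells without, and as deposited it was found in 21 of 21 wells with Spp1 and in 70% of those without. Cd9 followed with 80.3%, against 59.7%, and Fn1 with 37.1%, against 17.2%. For Gpnmb the shares were 11.2 and 1.13%, from only 3 wells. Cd52 (71.5 and 66.8%), Cd72 (22.1 and 17.1%) and Sparc (89.6 and 87.7%) hardly differed. Thinned shares were thus higher in wells with Spp1 for 9 of the 9 other members and for 8 as deposited. Of the 3006 genes that at least 20% of day 3 wells held, 53.5% had the higher thinned share in wells with Spp1 and 81.8% the higher share as deposited. In pair P1 the wells with Spp1 had 1816 CPM of Cd63, against 370 CPM in those without, and in pair P2 861 CPM, against 690 CPM. The level of Fn1 differed in pair P1 (1484 CPM with Spp1, 123 CPM without) far more than in pair P2 (451 CPM with, 433 CPM without). Wells with Fn1 were 4 of 6 with Spp1 and 6 of 24 without in pair P1, and 6 of 15 with and 11 of 36 without in pair P2. Cells of a library are not replicates, and no test was made.

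Spp1 and Fn1 shared part of their wells. Of 21 wells with Spp1 and 27 with Fn1 at day 3, 10 had both, so Fn1 was found in 47.6% of wells with Spp1 and 28.3% of those without, as deposited. Wells with Fn1 had Cd63 in 54.6% after thinning, against 38.2% in wells without, but Cd9 in 62.9 and 62.0% and Cd72 in 15.5 and 18.2%. All 3 wells with Gpnmb also had Fn1. Across the 81 day 3 wells, Spearman's rho of transcript shares was 0.45 for Spp1 and Cd63, 0.30 for Spp1 and Cd9 and 0.24 for Spp1 and Fn1. The values were 0.50 for Cd72 and Sparc, 0.48 for Cd9 and Sparc and -0.03 for Fn1 and Cd72. All wells share libraries and depth, and the values are descriptive. At day 7 only 10 wells held Spp1, against 103 without, and they had Fn1 in 19.8% (3.82% without) and Cd63 in 54.4% (37.4% without), whereas Cst7 was at 0.581%, against 3.11%.

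**Figure D4:**
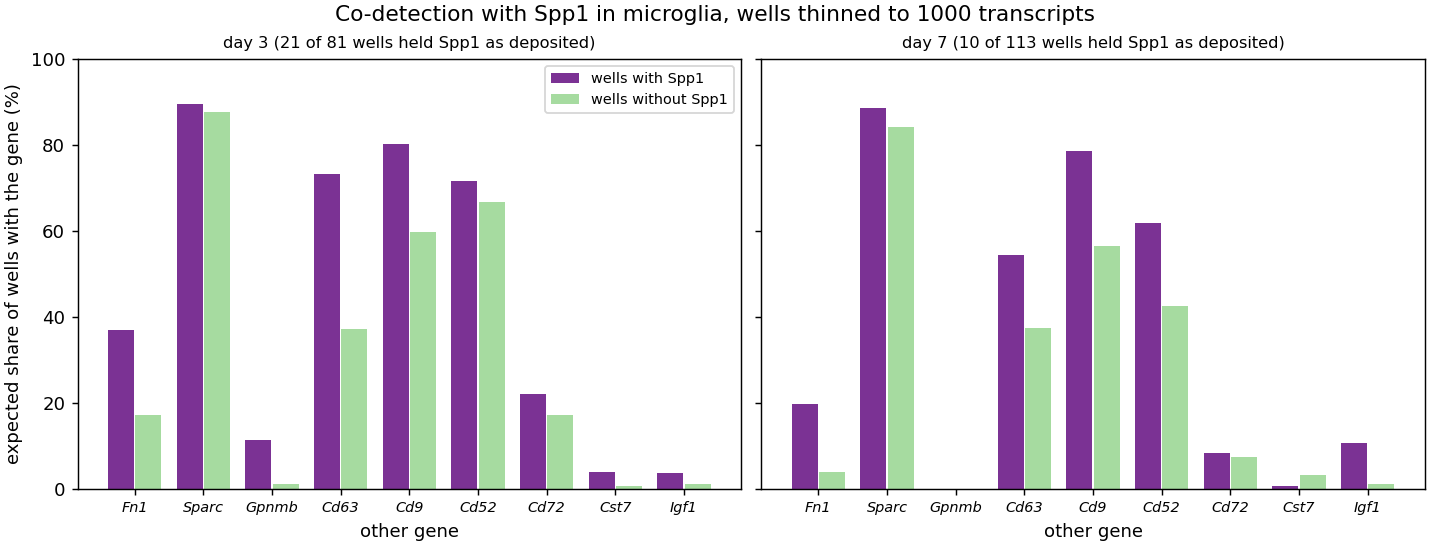
Percentage of microglia wells expected to hold each other member at 1000 transcripts per well, in wells with Spp1 and wells without, at day 3 and at day 7. Spp1 is thinned too, so each well is weighted by its chance of keeping a transcript of Spp1. At day 3 the shares are 73.2% with and 37.1% without for Cd63, and 37.1 and 17.2% for Fn1, while Cd52 and Sparc lie close together.

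The annotation's clusters placed Spp1 mainly in 1 group of microglia. Cluster 6 held 39 day 3 microglia wells and 97 of the 122 Spp1 transcripts (352 CPM, 14 wells) with 157 Fn1 transcripts. Cluster 14 held 3 wells and 16 Spp1 transcripts, and clusters 3, 4 and 5 together held 36 wells with 2, 0 and 6. Only 1 control well and 7 day 7 wells fell into cluster 6, and those of day 7 held no Spp1. The genes were among those clustered, so this is no separate evidence. The second cell type call of the annotation named 15 of the 21 Spp1 wells and 45 of the 60 others microglia. Microglia marker sums were 5931 CPM in wells with Spp1 and 6268 CPM in those without, and monocyte marker sums were 96.9 and 329 CPM. The order of the monocyte sums differed by pair, with 97.6 CPM with Spp1 and 28.5 CPM without in pair P1, but 96.5 and 489 CPM in pair P2. By wells, 12 of 21 with Spp1 and 15 of 60 without held a monocyte marker, and the wells with Spp1 were deeper.

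Markers of other myeloid cells moved with time as well. Monocyte markers summed to 30.8 and 31.8 CPM in control microglia, 51.1 and 338 CPM at day 3 and 109 and 60.5 CPM at day 7, with 4 and 6 of 8 markers detected at day 3 and Vcan at 0 in every sum. The wells holding any transcript of a monocyte or dendritic cell marker were then left out. Day 3 Spp1 was 34.2 CPM in pair P1 and 328 CPM in pair P2, and Fn1 148 and 530 CPM, against 0 for both genes in control. The Spp1 level of pair P1, 339 CPM over all its wells, then rested on 3 transcripts in 1 of 21 wells, no more than the counting floor. Only wells that both calls named microglia gave 456 and 132 CPM of Spp1. Photoreceptor markers, 12 of 12 detected, summed to 2264 and 4472 CPM in control, 1438 and 2153 CPM at day 3 and 4679 and 5281 CPM at day 7. Their part in the members' values was not tested.

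Across the annotated classes and groups of at least 26 wells the members fell into different patterns. Cd63, Cd9 and Sparc were highest in day 3 microglia (785, 1141 and 3560 CPM), with pairs apart from the next group, day 7 microglia. For Cd9 and Sparc this order among microglia depended on the denominator. As CPM of transcripts other than predicted and mitochondrial ones, Cd9 stood at 1881 in control microglia and 1743 at day 3. Sparc then stood at 5581 in day 7 microglia and 5437 at day 3. The pairs overlapped in both cases. The next class outside microglia was at 328 CPM of Cd63 (ciliary body macrophages), 329 CPM of Cd9 (cornea macrophages) and 301 CPM of Sparc (joint class of ciliary body). Fn1 was also highest in day 3 microglia, at 482 CPM, with pairs apart from the 294 CPM of the day 3 joint class. Spp1 was highest in the day 3 joint class at 327 CPM, whose pairs overlapped those of day 3 microglia at 255 CPM, followed by the joint class of ciliary body at 55.8, day 7 microglia at 38.7, cornea macrophages at 29.1, ciliary body macrophages at 20.6 and day 3 dendritic cells at 14.8 CPM. From the joint class of ciliary body down to ciliary body macrophages, neighbours in that order had overlapping pairs. Cd52 was highest in dendritic cells, at 2229 CPM at day 7 and 2081 CPM at day 3, whose pairs overlapped each other's. Cd72 stood at 225 CPM in day 3 microglia and 182 CPM in day 3 dendritic cells, whose pairs overlapped. Cst7 was highest in the day 7 joint class at 72.8 CPM, apart from day 7 microglia at 30.6 CPM.

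**Figure D5:**
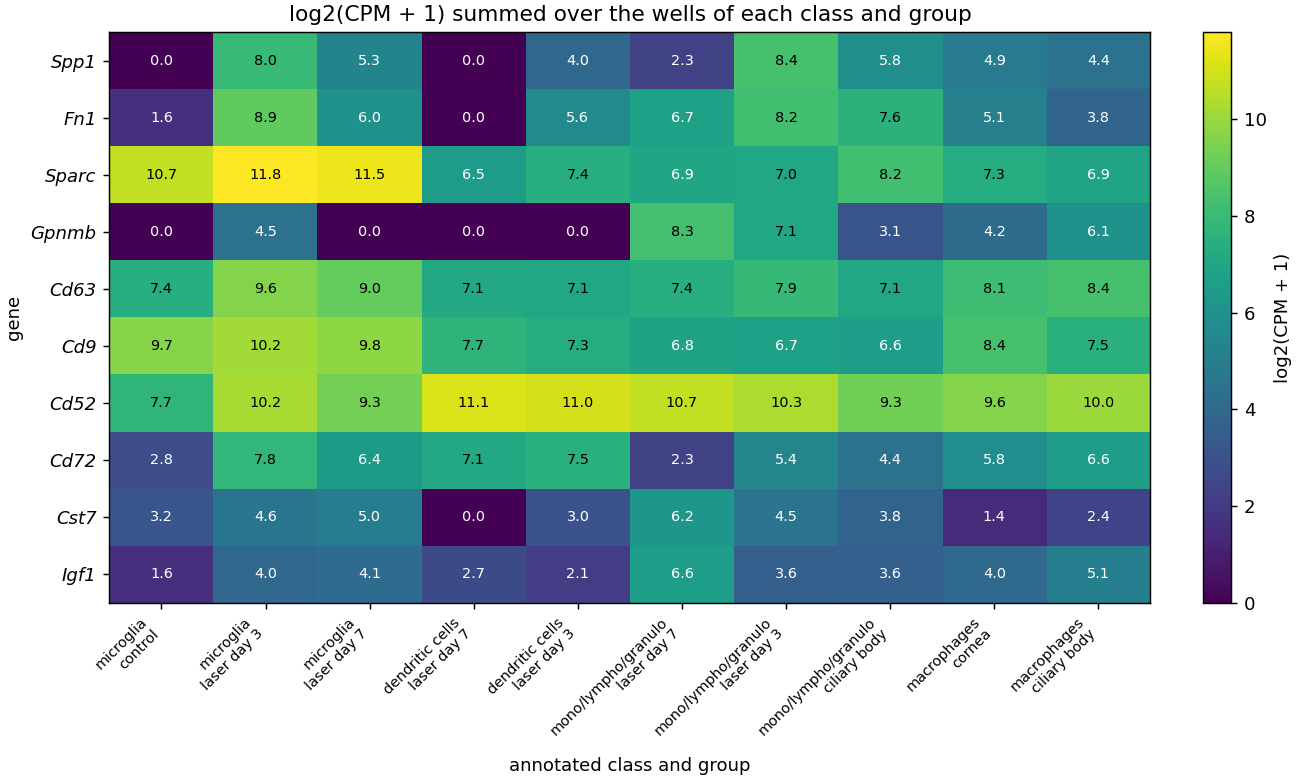
Level of each of the 10 genes as log2(CPM + 1) in every annotated class and group of at least 26 wells, summed over its libraries. Sparc, Cd9 and Cd63 are highest in the microglia groups, Cd52 in dendritic cells, and Spp1 in day 3 microglia and in the day 3 joint class.

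Comparisons that played no part in the choice came first from the joint class of monocytes, lymphocytes and granulocytes, day 7 against day 3. The Spp1 sums were lower at day 7, but Spp1 passed the filter on low counts through day 3 alone, where each pair's level came almost wholly from 1 well. The p-value below is therefore not read as evidence of a fall across the class. Spp1 stood at 5.99 and 0 CPM at day 7, against 189 and 439 CPM at day 3, from 1 and 89 transcripts. The log2 change was -6.03 ± 0.93 (SE, n = 2 pairs each) with an adjusted p of 0.0364 by edgeR, and the ratio of transcripts was 0.0124 (95% counting interval 0.00031 to 0.0708). It was the only call among the 7 members tested, beside 0.606% of 1979 genes called in either direction and 0.455% called lower. Of the 89 day 3 transcripts 86 lay in 2 wells, 63 in one of pair P2 and 23 in one of pair P1, and without these, left out after their values were seen, 3 transcripts remained (11.6 CPM). Both wells held Fn1 (29 and 9 transcripts) and Gpnmb (8 and 21) too. The adjusted p was 0.0504 without predicted and mitochondrial genes. The makeup of the class also differed: the second call named 32 of 41 day 7 wells and 15 of 46 day 3 wells lymphocytes, and lymphocyte markers summed to 1018 and 1322 CPM at day 7, against 57.4 and 379 CPM at day 3. Its part in the result was not tested.

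The other members did not pass the test in the joint class. Fn1 stood at 156 and 0 CPM at day 7, against 238 and 339 CPM at day 3, with a log2 change of -1.64 ± 0.81 and an adjusted p of 0.447. Gpnmb stood at 461 and 12.5 CPM at day 7, against 230 and 59.9 CPM at day 3 (0.90 ± 1.0, adjusted p = 0.774), and 74 of its 78 day 7 transcripts came from 1 well that also held 21 of the 23 Igf1 transcripts. Cd52 had a log2 change of 0.44 ± 0.29, Cd63 of -0.66 ± 0.61, Cd9 of -0.10 ± 0.84 and Sparc of -0.00 ± 0.65, with adjusted p-values of 0.584, 0.717, 0.977 and 0.999. Which pair of day 7 was kept decided some of these: without day 7 pair P1, Fn1, listed at 0 in the pair that remained, and Cd63 (-2.68, adjusted p = 0.031) were called lower, and without day 7 pair P2, Gpnmb (1.76, adjusted p = 0.0261) was called higher. In these fits day 7 is a lone sum, assumed to vary like the day 3 pairs. Cst7, too low for the test, had 18 transcripts at day 7 and 6 at day 3 (89.9 and 37.4 CPM, against 16.4 and 26.6 CPM), a ratio of 3.31 with a counting interval of 1.26 to 10.2. Cd72 had 1 transcript at day 7 and 11 at day 3.

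In retinal dendritic cells, which present antigen and take up tissue debris, no member was called between day 7 and day 3, where 3 of 2390 genes were (0.126%). Spp1 and Fn1 were at 0 in the 26 day 7 wells, which allows up to 11.5% of wells, and had 13 and 42 transcripts in the 82 day 3 wells, 29 of the Fn1 transcripts in 1 well. Cd9 stood at 172 and 265 CPM at day 7, against 108 and 170 CPM at day 3, and its log2 change was 0.55 ± 0.37 (edgeR adjusted p = 0.602) although the pairs did not overlap, as those of 43.9% of the genes tested did not. Cd52 (0.25 ± 0.26, adjusted p = 0.75), Cd63 (0.04 ± 0.50, adjusted p = 0.997), Cd72 (-0.29 ± 0.34, adjusted p = 0.778) and Sparc (-0.70 ± 0.60, adjusted p = 0.687) had overlapping pairs. The day 7 values rest on 26 wells.

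The second such comparison set macrophages of the unlesioned cornea against those of the ciliary body. None of the 7 members tested was called by edgeR, beside 3.46% of 4628 genes. Cd9 came nearest, with 332 and 325 CPM in cornea and 152 and 191 CPM in ciliary body, a log2 change of 0.85 ± 0.29 and an adjusted p of 0.132. With the 4 single libraries of a group in place of pairs its edgeR adjusted p was 0.0349. No label states whether the libraries of a pair came from different mice, so that value may treat parts of 1 sample as replicates and is not read as a call. Cd72 stood at 54.3 and 55.3 CPM in cornea, against 116 and 82.8 CPM in ciliary body (-0.92 ± 0.38, adjusted p = 0.227), and Cd52 at 780 and 763 CPM, against 1309 and 872 CPM (-0.58 ± 0.30, adjusted p = 0.366). The pairs of these 3 genes and of Sparc (0.42 ± 0.34, adjusted p = 0.609) did not overlap between the tissues, beside 48.4% of all genes tested. Fn1 (1.15 ± 0.89, adjusted p = 0.576) and Cd63 (-0.25 ± 0.32, adjusted p = 0.779) had overlapping pairs. Gpnmb showed how few wells can carry a level: 58 of its 64 transcripts in ciliary body came from 2 wells, and all 10 in cornea from 1 (-1.84 ± 2.26, adjusted p = 0.803). Spp1 had 17 transcripts in cornea and 20 in ciliary body, Igf1 9 and 32 and Cst7 1 and 4, and these 3 did not pass the filter. Beside these values, corneal epithelium markers summed to 13320 to 19339 CPM in the macrophage wells of cornea, against 2.63 to 1301 CPM in those of ciliary body, and their part was not tested. In wells without an annotation Cd9 stood at 609 to 770 CPM over the 4 cornea libraries. In those of ciliary body it stood at 144 to 421 CPM.

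The genes whose levels were most like Spp1 across all 20 sums of a class in a pair were, by Pearson's r of log2(CPM + 1) among 2529 genes, P4hb (0.85), Fn1 (0.84), Fcer1g (0.83), Canx (0.75) and Cd68 (0.75). P4hb and Canx encode proteins that fold others in the endoplasmic reticulum, Fcer1g an adaptor of activating receptors and Cd68 a lysosomal membrane glycoprotein. Among the members Cd63 followed with 0.57 at rank 99, Cd72 with 0.45, Sparc with 0.24, Cd9 with 0.20 and Cd52 with 0.09. The sums share libraries and depth, and the values describe these 20 sums only. Within day 3 microglia, ranked over 3006 genes by the gap in thinned share between wells with and without Spp1, Cd63 came first (36.1 percentage points), then Cd68 (30.3), Fcrls (28.8), Pgam1 (26.4) and Apoe (25.4). Cd9 was at rank 12 and Fn1 at rank 16, but Cd72, Cd52 and Sparc at ranks 633, 676 and 1188.

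Other genes of the members' pathways were tested in microglia with edgeR over all 3699 genes, where 24.4% were called at day 3 and 0.973% at day 7. Of 10 receptors of osteopontin and fibronectin 4 could be tested, and 2 rose at day 3. Cd44, the osteopontin receptor that is no integrin, averaged 75.5 ± 1.65 CPM at day 3, against 18.1 ± 9.27 CPM in control (SD, n = 2 pairs; log2 1.61 ± 0.55, adjusted p = 0.037), and Itgb1, a beta chain of fibronectin receptors, averaged 264 ± 29.8 CPM, against 90.9 ± 6.42 CPM (0.93 ± 0.32, adjusted p = 0.0375). Both calls were lost under several other settings, among them DESeq2 (adjusted p 0.307 and 0.296) and without control pair P2 (0.502 and 0.182) or day 3 pair P2 (0.154 and 0.254). Cd44 also lost it without day 3 pair P1 (0.0768) and Itgb1 without control pair P1 (0.061). Itgb5 (0.29 ± 0.22, adjusted p = 0.349) and Itgav (-0.96 ± 0.44, adjusted p = 0.115) did not pass. No receptor was called at day 7. The list's median log2 change was 0.61 at day 3 and 0.15 at day 7, beside medians near 0 over all genes.

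Of 24 other genes known from disease-associated microglia, a list drawn up with results of these libraries known, 22 were tested. At day 3, 11 rose and 0 fell (median log2 0.91), where 11.4% of all genes tested rose and 12.9% fell, and at day 7, 4 rose and 0 fell (0.59). The lysosomal proteases led by level: Ctsb, the gene of cathepsin B, averaged 2808 ± 3.18 CPM at day 3, against 793 ± 39.9 CPM in control (1.20 ± 0.21, adjusted p = 0.000525), and Ctsd, of cathepsin D, 4309 ± 341 CPM, against 1471 ± 267 CPM (0.92 ± 0.23, adjusted p = 0.00727). Ctsb was also called at day 7 (1.14 ± 0.21, adjusted p = 0.0109), together with Axl, a receptor for dying cells, Itgax and H2-D1, whose names were picked after their values were seen. Apoe, the lipid carrier, was not called at day 3 (1.39 ± 0.90, adjusted p = 0.362), when its pairs averaged 1592 ± 1429 CPM, against 400 ± 208 CPM in control, nor at day 7 (3.50 ± 0.95, adjusted p = 0.271) with 5538 ± 328 CPM. B2m had a log2 change of -0.08 ± 0.23 at day 3 (adjusted p = 0.814) under TMM and 0.57 with totals alone. Between day 7 and day 3, where 9.79% of all genes tested were called, 5 genes of the list fell (Ank, Cd68, Ch25h, Fabp5 and Lpl) and 3 rose (Cd83, H2-D1 and Trem2), named after their values were seen. Without wells holding a monocyte or dendritic cell marker, Ctsb (0.96, adjusted p = 0.0597) and Ctsd (0.59, adjusted p = 0.249) lost their calls at day 3, and Ctsd did so without control pair P2 too (0.65, adjusted p = 0.0934). The day 7 calls of Itgax and H2-D1 were lost without control pair P2 (adjusted p 0.0626 and 0.123), that of H2-D1 also without pair P2 of day 3 or of day 7 (0.0522 and 0.0705). Without wells holding a monocyte or dendritic cell marker all 4 day 7 calls were lost, with adjusted p-values of 0.201 for Ctsb, 0.107 for Axl, 0.114 for Itgax and 0.224 for H2-D1.

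The remaining lists had few genes called. Of 8 other tetraspanins 5 were tested, and 1 fell at day 3, Cd53, found on leukocytes, with 604 ± 158 CPM, against 661 ± 166 CPM in control (-0.73 ± 0.23, adjusted p = 0.0283), a call lost with totals alone (-0.10, adjusted p = 0.768), without control pair P2 (adjusted p = 0.203) and without day 3 pair P1 (0.374). Cd81, which like CD9 sits at the cell surface, had a log2 change of 0.10 ± 0.21 (adjusted p = 0.763), or 0.74 with totals alone. Among 8 cystatins and cathepsins that cystatin F meets, 7 were tested. Cst3, the gene of cystatin C and a homeostatic microglial gene, fell to 5182 ± 839 CPM at day 3, against 9243 ± 1630 CPM in control (-1.46 ± 0.24, adjusted p = 0.00031), and was higher at day 7 than at day 3 (0.82 ± 0.24, adjusted p = 0.0349), a call lost whichever day 3 or day 7 pair was left out (adjusted p 0.0643 to 0.273). Cstb, a cytosolic cystatin named after its values were seen, rose (1.55 ± 0.47, adjusted p = 0.0208), though not without control pair P2 (adjusted p = 0.213) or day 3 pair P2 (0.303), and Lgmn, the protease legumain, did not pass (0.25 ± 0.21, adjusted p = 0.389). Of 13 matrix genes 3 were tested (median log2 1.08 at day 3), and Tgfbi, a secreted matrix protein, averaged 237 ± 173 CPM at day 3, against 31.7 ± 16.2 CPM in control (2.54 ± 0.61, adjusted p = 0.0132). Tgfbi was lower at day 7 than at day 3 (41.7 ± 12.8 CPM, -2.22 ± 0.56, adjusted p = 0.0324). Without day 3 pair P2 both calls of Tgfbi were lost (1.34, adjusted p = 0.165, and -1.02, adjusted p = 0.341), and the later one also without day 7 pair P2 (adjusted p = 0.189).

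No gene was called at either time against control among the 2 tested of 11 in the insulin-like growth factor pathway, the 5 tested of 6 partners of Cd72 and the 1 tested of 4 MiT/TFE factors. Ptpn6, the phosphatase SHP-1 that binds CD72, had a log2 change of 0.31 ± 0.26 at day 3 (adjusted p = 0.408). Tfe3, the MiT/TFE factor tested, was at 26.7 ± 1.64 CPM at day 3 and 36.1 ± 10.1 CPM in control (-0.91 ± 0.56, adjusted p = 0.235). It was higher at day 7 than at day 3 (66.0 ± 14.3 CPM, 1.62 ± 0.49, adjusted p = 0.0401), a call lost whichever day 3 or day 7 pair was left out. With 1 pair left out the log2 change ran from 1.47 to 1.76.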

How the data were processed

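Transcripts of single CD45+ cells in 20 libraries were analysed from the deposited tables. The library tables and the unnormalized tables hold, for each gene in each well, an estimated count of transcripts, which the authors deposited without normalization. The aligner was BWA 0.6.2-r126, per the submitters' processing notes. How genes were annotated and counted, and on which genome build, is not stated there, and genes carry the symbols of the tables. The annotation tables, deposited as other values, give a cell type, a cluster and, for retina, a second call by signature. Annotated wells were matched to library wells whose values are identical, within the libraries of the same prefix and group. Of the columns of the unnormalized tables, 9 from 1 cornea library were not used, and those wells were joined by name. Of 829 annotated wells 111 are in both tables, and none of these differed in class. Of the annotated wells, 57 held under 1000 transcripts or over 25% mitochondrial ones. They were kept, and an alternative leaves them out. No doublet caller was run on wells that received 1 sorted cell each.

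For each class in a pair, estimated counts were rounded and added up over wells. Sums were tested with edgeR 4.0.16 (filterByExpr, TMM, glmQLFit and glmQLFTest with robust estimation) under R 4.3.3, using Benjamini-Hochberg adjustment over all genes tested and a threshold of 0.05. Microglia were fitted over their 3 groups, and macrophages together with the control microglia. SEs are log2 changes divided by the square root of F. The scripts were tested on simulated data. Intervals and floors of 3 transcripts cover counting error only. Python 3.11.15, numpy 2.4.6, scipy 1.17.1 and pandas 2.3.3 computed shares, with thinning as the exact expectation, and DESeq2 1.42.0 served as an alternative. The members and the gene lists were chosen with earlier results of these data known. All 10 members are named in each comparison, with up to 4 genes of highest mean CPM from each pathway list and the 5 genes most like Spp1 by each of 2 measures. Alternatives covered the filter, the test, single libraries, each pair left out, the title prefix as a block, the second call and the depth filter. Added after seeing the data were totals in place of TMM, sums and thinning without predicted and mitochondrial genes, microglia of the retina table only, microglia without myeloid marker wells, macrophage sums alone, and the joint class without 2 wells. One microglia marker of the list is not reported here and was left out of the marker sums.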

Additional observations from a re-analysis of the deposited data

Results flagged for a closer look

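Of 56 sets of 4 libraries, 11 had 1 library far from the other 3 by Dixon's criterion. Chance alone gives this in about 1 of 20 sets of continuous values, but a set with 3 libraries at 0 always meets the criterion, so that rate does not hold for sparse genes. In microglia, Igf1 at day 3 had a library at 68.9 CPM with the next at 11.6 CPM. In control microglia single libraries stood out for Cst7 (17.3 CPM), Igf1 (8.70 CPM) and Fn1 (4.33 CPM), each with the others at 0 and from 4, 1 and 1 transcripts, and for Cd9 at the low end (537 CPM, the next at 858 CPM). In dendritic cells of day 3 the libraries that stood out were at 173 CPM of Fn1 (next 14.8), 235 CPM of Cd63 (next 122) and 258 CPM of Sparc (next 73.8). In ciliary body they were at 74.8 CPM of Fn1 (next 3.70) and 211 CPM of Sparc (next 81.8) in macrophages and at 49.5 CPM of Cst7 (next 6.52) in the joint class.

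Between day 7 and day 3, 2 members moved in opposite directions in 2 classes, with each pair on its side. The difference between classes was not tested. The share of all genes that move in this way is not given, so nothing is read from it. Cd52 averaged 635 CPM at day 7 and 1224 CPM at day 3 in microglia, but 1794 CPM at day 7 and 1288 CPM at day 3 in the joint class. In the joint class, whose makeup also differed between the days, that change was not called by edgeR (adjusted p = 0.584). Cd9 averaged 893 CPM at day 7 and 1101 CPM at day 3 in microglia, but 219 CPM at day 7 and 139 CPM at day 3 in dendritic cells, and its microglial difference vanished under TMM scaling (0.04 on the log2 scale). Its change in dendritic cells was not called by edgeR (adjusted p = 0.602).

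Wells that passed the filter but carry no annotation, 107 at day 3, 152 at day 7 and 76 in control, entered no comparison. Spp1 in them had a median over 4 libraries of 419 CPM at day 3, against 0 in control. The 4 libraries of day 3 stood at 41.8, 745, 778 and 91.7 CPM, from 1, 4, 5 and 5 wells, and the well with most Spp1 in each held 5, 74, 84 and 14 transcripts, so that the 2 high libraries rest on 1 well each for most of their level. The other members whose 4 laser libraries all lay above all 4 control libraries were Cd52, with 368 CPM at day 3 and 200.2 CPM at day 7, against 43.7 CPM in control, Cst7, with 7.19 CPM at day 3 and 7.57 CPM at day 7, against 0, and Igf1, with 20.1 CPM at day 3, against 2.25 CPM. Cst7 rested on 1, 1, 2 and 1 transcripts in the day 3 libraries, in 1 well of each, and Igf1 on 2, 5, 4 and 3. The share of all genes that separate in this way is not given, so nothing is read from these separations. The day 3 medians of Fn1, Cd63, Gpnmb and Cd72 were also above those of control and that of Sparc below, with libraries that overlapped.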

How the results depend on the processing

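The number of genes called depended on the test and the filter. Cornea against ciliary body macrophages gave 160 genes, 352 without the filter, 59 with DESeq2, 251 with macrophage sums alone and 118 to 333 with 1 pair left out. Dendritic cells gave 3, 36 without the filter, 6 with DESeq2, 8 with single libraries, 5 with totals alone, 13 where the second call had to match and 9 to 72 with 1 pair left out. The joint class gave 12, 81 without the filter, 27 with single libraries, 3 without predicted and mitochondrial genes and 45 to 122 with 1 pair left out. Microglia at day 3 against control gave 901, 296 with DESeq2, 595 by second call, 452 without myeloid marker wells and 424 to 1036 with 1 pair left out. At day 7 the count was 36, or 12 with DESeq2, 135 with single libraries, 139 with totals alone, 62 without predicted and mitochondrial genes, 18 by second call, 0 without myeloid marker wells (268 at an unadjusted p under 0.05) and 20 to 85 with 1 pair left out. Between day 7 and day 3 it was 362, or 85 with DESeq2, 562 with totals alone, 184 by second call, 97 without myeloid marker wells and 124 to 602 with 1 pair left out.

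No label says that title prefixes pair the samples, and with 2 pairs a group the correlations of same-numbered deviations cannot settle it: -0.0187 in dendritic cells, 0.0611 in the joint class and, in microglia, -0.00266 for control and day 3, 0.203 for control and day 7 and -0.0654 for the laser times. With the prefix as a replicate block, dendritic cells gave 10 calls, the joint class 58 and microglia at day 7 55. Spp1 in the joint class then had an edgeR adjusted p of 0.000543. The limits of its main test hold for this value too: Spp1 passed the filter through day 3 alone, where 86 of 89 transcripts lay in 2 wells. The smaller p is therefore not read as evidence of a fall either.

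Tested member changes kept direction and side of the threshold in 208 of 235 alternatives. Reversals were all of members that were not called: in dendritic cells Cd63 without the filter (-0.20), by second call (-0.52) and with totals alone (-0.0285), and Cd52 without the filter (-0.00701). In the joint class they were Sparc with DESeq2 (0.0481), in wells passing the filter (0.26), with totals alone (0.0581), without predicted and mitochondrial genes (0.0172) and with the replicate block (0.25), and Cd9 in wells passing the filter (0.0108). With 1 pair left out, log2 changes ran in macrophages from -0.0220 to 3.97 for Fn1 and -0.77 to 0.0925 for Cd63. In dendritic cells they ran from -0.69 to 0.72 for Cd63, -1.24 to 0.38 for Sparc and -0.16 to 0.52 for Cd52. In the joint class they ran from -8.26 to -5.19 for Spp1, -3.02 to 1.04 for Cd9, -0.68 to 1.41 for Sparc, -3.41 to 2.05 for Gpnmb and -2.68 to 0.0113 for Cd63. Among pathway genes in microglia at day 3, B2m was 0.13 without the filter, 0.57 with totals alone and 0.0627 by second call, Cd81 -0.00564 with single libraries and -0.0342 without myeloid marker wells, and Itgb5 -0.0210 without myeloid marker wells. With 1 pair left out, Apoe ran from -0.15 to 2.15, B2m from -0.35 to 0.19 and Ptpn6 from -0.00958 to 0.59. The cause was not tested.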

Other observations

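Annotated classes outside these comparisons also held members. The joint class of ciliary body, 73 wells without any lesion, had Fn1 in 17 wells (23.3%, 95% Wilson interval 15.1 to 34.2) at 191 CPM, and its pairs were at 178 and 211 CPM. Spp1 in that class was at 55.8 CPM, but 20 of its 30 transcripts were in 1 well and only 4 wells had any. Sparc was at 301 CPM there, with 65 of 162 transcripts in 1 well. Ciliary body macrophages had Igf1 in 18 of 111 wells (16.2%, 10.5 to 24.2) at 32.9 CPM, a larger share than the 3 of 81 day 3 microglia wells, in which 5 of 7 transcripts were in 1 well. The median depths were 8358 and 4480 transcripts, and after thinning the shares were 5.47 and 1.37%.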
